A study of Rattus norvegicus with 42 samples.

Results

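The sodium pump moves sodium out of the cell and potassium in, and the gradient it builds drives uptake of nutrients and transmitters and the electrical signals of nerve and muscle. A pump holds a catalytic alpha subunit, a beta subunit that carries the alpha subunit to the cell surface, and often a small FXYD protein that tunes its affinity for ions. Each subunit has several isoforms, and tissues are known to use different ones. Described here are the beta subunit genes Atp1b1, Atp1b2 and Atp1b3 and the FXYD genes Fxyd1 and Fxyd3. They were taken as every probe set whose single gene symbol in the platform annotation is one of these names, which gave 7 probe sets of 5 genes, out of 31042 tested probe sets and 14217 named genes. Atp1b1 and Atp1b2 have 2 probe sets each, numbered 1 and 2 by falling mean level.

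Liver, brain and lung of 1 untreated rat were measured on Affymetrix arrays, alone and after their labelled cRNA had been combined in known shares. The labels give the animals' age as 9 to 12 weeks and the design text names a single animal. The 42 arrays form 14 groups of 3 technical replicates, which are pure liver, pure brain, pure lung and 11 mixtures. A mixture is named by its labelled percentages with liver first, brain next and lung last, so 70/25/5 is 70% liver, 25% brain and 5% lung. The stated purpose was to try how well such mixtures can be taken apart by statistics. Since the replicates of a group are arrays hybridised with 1 RNA, p-values below measure the spread between arrays and say nothing of other animals. The exception is the regression on mixtures alone, whose p-values measure the scatter of the 11 mixture means about the fit. They too say nothing of other animals.

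All levels are on the log2 scale of the deposited table, so a difference of 1 is a doubling. Array medians lay between 5.48 and 5.83, and the median SD between replicate arrays was 0.09 in brain, 0.09 in lung and 0.12 in liver. The bacterial dap controls gave 2.57 to 2.88 on the pure arrays, which shows how dim an empty probe set can read. The means of the 6 neuron marker genes in liver ran higher, from 3.33 to 4.48. The tissues carried their own markers for most of the listed cell types. By the limits used below for a gene enriched in a tissue (2-fold over each of the others), 7 of 7 hepatocyte genes were enriched in liver, 6 of 6 neuron, 6 of 7 astrocyte and 4 of 4 oligodendrocyte genes in brain, and 5 of 5 alveolar type 2 and 4 of 4 alveolar type 1 genes in lung. Of the 7 hepatocyte genes 5 were also at least 2-fold higher in brain than in lung. Their summed level was 15.97 to 16.02 in liver, 6.99 to 7.01 in lung and 12.32 to 12.36 in brain, where Alb (albumin) at 12.21 made up nearly all of it. Lung arrays showed airway, smooth muscle and heart muscle genes, with 3 of 4, 5 of 5 and 5 of 8 of them enriched there. So were 3 of 3 endothelium, 5 of 5 white blood cell and 2 of 3 red blood cell genes. Of 6 measured choroid plexus genes only 2 were enriched in brain, and 1, Aqp1, was enriched in lung.

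RefSeq promoter windows of the GRCr8 assembly, 250 bases before and 50 after the annotated start of transcription, were at hand for Atp1b2, Atp1b3 and Fxyd1. They are shown because these genes had their highest levels in brain, lung and liver, in that order. Capitals mark the TATA box (TATAAA), the GC box (GGGCGG) and the CCAAT box (CCAAT), searched on both strands, so that CCGCCC and ATTGG are matches on the other strand; no match overlapped another. The windows are chr10:54823659-54823958, chr8:105821102-105821401 and chr1:95418531-95418830, all on the minus strand.
Atp1b2: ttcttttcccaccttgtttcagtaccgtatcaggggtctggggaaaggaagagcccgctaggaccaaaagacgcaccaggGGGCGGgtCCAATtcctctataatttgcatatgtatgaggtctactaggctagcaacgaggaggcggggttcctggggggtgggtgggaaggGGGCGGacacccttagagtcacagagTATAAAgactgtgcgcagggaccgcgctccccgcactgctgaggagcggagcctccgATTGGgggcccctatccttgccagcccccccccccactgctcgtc
Atp1b3: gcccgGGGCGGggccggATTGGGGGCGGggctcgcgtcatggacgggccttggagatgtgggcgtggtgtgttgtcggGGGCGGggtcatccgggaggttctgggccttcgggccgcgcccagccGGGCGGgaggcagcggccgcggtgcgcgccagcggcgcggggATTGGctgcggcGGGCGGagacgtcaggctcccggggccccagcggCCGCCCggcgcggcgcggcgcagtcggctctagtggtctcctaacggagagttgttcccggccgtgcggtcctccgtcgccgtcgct
Fxyd1: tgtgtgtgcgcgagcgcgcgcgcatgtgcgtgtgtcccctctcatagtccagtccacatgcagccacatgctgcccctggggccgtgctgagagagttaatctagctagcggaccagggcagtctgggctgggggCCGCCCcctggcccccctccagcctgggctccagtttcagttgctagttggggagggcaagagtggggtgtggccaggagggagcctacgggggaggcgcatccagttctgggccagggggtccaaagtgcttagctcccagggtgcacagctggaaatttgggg

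The Atp1b2 window held 1 TATA box, 2 GC boxes and 2 CCAAT boxes. The Atp1b3 window held 6 GC boxes and 2 CCAAT boxes, and these letters spelled no TATA box in it. The Fxyd1 window held 1 GC box. Among all 33469 windows of the table, 14.2% contained the TATA box, 33.1% the GC box and 37.5% the CCAAT box. G and C made up 77.7% of the Atp1b3 window, with 46 CpG pairs, against 60.3% and 14 pairs for Atp1b2, 65.3% and 12 pairs for Fxyd1, and medians of 51.7% and 7 pairs over all windows. These are descriptions of the letters, and which start site each tissue uses was not tested.

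The beta subunit genes divided between brain and lung. Atp1b1, which encodes the most widespread beta subunit, was highest in brain. Its probe set 1 read 9.06, 8.86 and 8.96 on the liver arrays, 12.66, 12.76 and 12.74 on the brain arrays and 9.58, 9.64 and 9.68 on the lung arrays. Every brain array stood far above every other array, and the lung arrays stood above the liver arrays with no overlap. Brain exceeded liver 13.5-fold and lung 8.49-fold (limma, Benjamini-Hochberg adjusted p = 3.65e-35 and 2.30e-32). In bulk tissue, fewer cells of a type and less RNA per cell cannot be told apart.

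Probe set 2 of Atp1b1 gave the same order of tissues with smaller steps. It read 8.40, 8.46 and 8.36 in liver, 11.77, 11.88 and 11.81 in brain and 9.42, 9.50 and 9.50 in lung, again without overlap. Brain exceeded liver 10.6-fold and lung 5.07-fold. The step from liver to lung was 1.60-fold by probe set 1, which is under the 2-fold limit used for calls, and 2.098-fold by probe set 2, which is over it. That step depended on scaling: with arrays centred on their medians the log2 difference of liver minus lung by probe set 2 was -0.82 and under the limit, and with a curve through the hybridisation controls that of probe set 1 was -1.54 and over it.

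Atp1b2, which encodes a beta subunit also known as an adhesion molecule on glia, was low in liver and lung and high in brain. Probe set 1 read 5.18, 4.94 and 4.83 in liver, 10.63, 10.54 and 10.53 in brain and 5.12, 5.45 and 4.87 in lung. The brain arrays were set apart by more than 5 log2 units, while the liver and lung arrays overlapped and lay below 5.73, the median of all values. Brain exceeded liver 47.9-fold and lung 42.7-fold (limma, adjusted p = 6.52e-34 and 2.94e-33), the widest steps among the 7 probe sets. Liver and lung differed by -0.17 ± 0.09 (SE), which did not pass limma's test (adjusted p = 0.0878), and the sign turned to 0.09 after median centring.

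Probe set 2 of Atp1b2 read 5.48, 5.30 and 5.02 in liver, 8.33, 8.15 and 8.31 in brain and 4.39, 4.72 and 4.62 in lung. Brain was again apart, at 7.99-fold over liver and 12.8-fold over lung. Here liver lay above lung without overlap, by 0.68 ± 0.09 (SE), where probe set 1 had the opposite sign. Under the curve through the hybridisation controls this difference became -0.23, so the data fix no order of liver and lung for this gene. Over the brain arrays the summed levels of 6 neuron genes were 14.30 to 14.32, of 7 astrocyte genes 14.58 to 14.61 and of 4 oligodendrocyte genes 14.26 to 14.31, against at most 6.67, 11.35 and 6.30 in liver and lung. The part of these cell types in the brain levels of Atp1b1 and Atp1b2 was not tested.

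Atp1b3, the gene of the third beta isoform, was highest in lung. It read 9.08, 9.12 and 9.07 in liver, 9.80, 9.83 and 9.82 in brain and 10.99, 10.85 and 10.91 in lung. All groups were separate, in the order lung, brain, liver. Lung exceeded liver 3.54-fold and brain 2.14-fold (limma, adjusted p = 1.19e-29 and 3.75e-23). Brain exceeded liver 1.65-fold, under the 2-fold limit, and with the curve through the hybridisation controls this step grew to a log2 difference of -1.35 for liver minus brain and passed the limit.

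**Figure D1:**
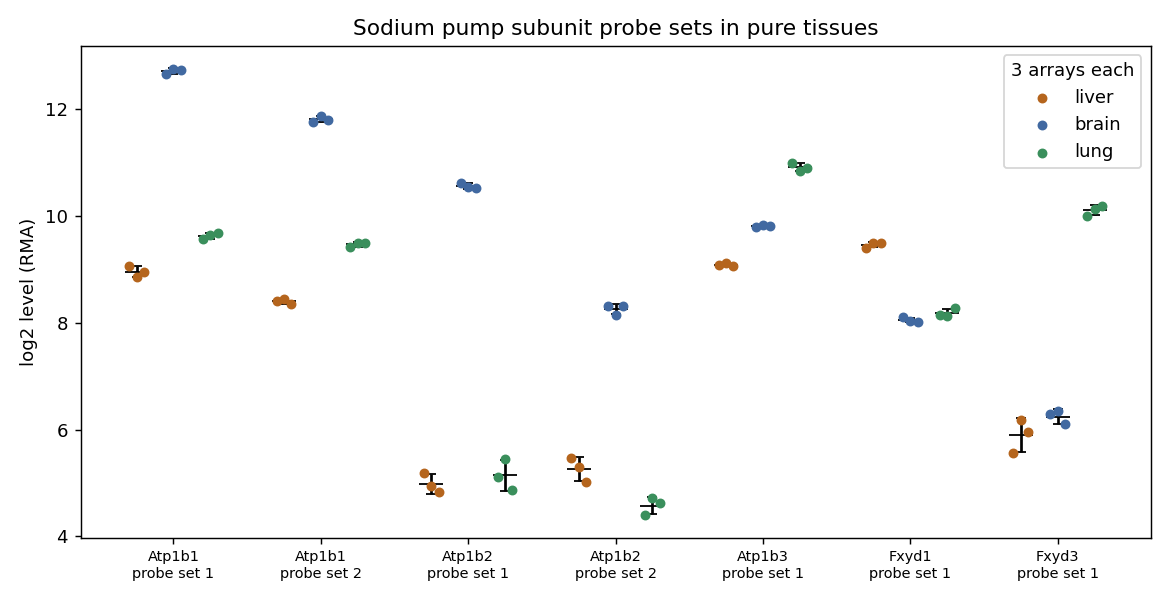
Log2 levels of the 7 probe sets on the 9 arrays of pure tissue; each point is 1 array, the horizontal line is the mean of 3 arrays and the bar its SD. Brain stands alone at the top for both probe sets of Atp1b1 and Atp1b2 (means 12.72, 11.82, 10.56 and 8.26), lung for Atp1b3 (10.92) and Fxyd3 (10.11), and liver for Fxyd1 (9.47).

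The FXYD partners separated liver from lung. Fxyd1 encodes phospholemman, the FXYD protein known for restraining the pump in heart and skeletal muscle. It read 9.41, 9.50 and 9.50 in liver, 8.11, 8.03 and 8.03 in brain and 8.15, 8.13 and 8.27 in lung. The liver arrays lay above all others, while the highest brain array and the lowest lung array were nearly level. Liver exceeded brain 2.66-fold and lung 2.44-fold (limma, adjusted p = 8.79e-24 and 2.13e-22), and brain and lung differed by -0.13 (adjusted p = 0.0203), well under the 2-fold limit.

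Fxyd1 was the only probe set of the 7 that an alternative took below the limits for enrichment. With the curve through the hybridisation controls the excess over brain was 0.75 (log2; limma, adjusted p = 0.00367) and that over lung 0.51 (adjusted p = 0.0466), both under 2-fold. The direction was the same in all 7 alternatives run for these comparisons. The summed level of 8 heart muscle genes was 7.68 to 7.78 in liver, 9.76 to 9.87 in brain and 10.89 to 10.92 in lung, and the highest of them in brain was Ryr2 at 9.37. That of 4 skeletal muscle genes was 9.12 to 9.19 in liver, 7.73 to 7.89 in brain and 9.93 to 9.98 in lung, with 4 of 4 called higher in liver than in brain and 0 of 4 called between liver and lung. The part of muscle in the levels of Fxyd1 was not tested.

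Fxyd3, which encodes an epithelial FXYD protein first found in mammary tumours, was a lung transcript in these samples. It read 5.56, 6.18 and 5.97 in liver, 6.29, 6.35 and 6.10 in brain and 10.00, 10.13 and 10.20 in lung. The lung arrays stood apart by more than 3 log2 units, and liver and brain overlapped. Lung exceeded liver 18.5-fold and brain 14.6-fold (limma, adjusted p = 2.47e-28 and 2.74e-27). Brain minus liver was positive but under 2-fold: liver minus brain was -0.34 ± 0.10 (SE; limma, adjusted p = 0.00265). It was -1.20 with the curve through the hybridisation controls, -0.098 after median centring (adjusted p = 0.368) and -0.072 after quantile normalization (adjusted p = 0.533), so it depended on scaling. The summed level of 4 airway genes was 14.21 to 14.24 in lung, 6.64 to 7.18 in liver and 6.29 to 6.63 in brain, led in lung by the club cell gene Scgb1a1 at 14.04. That of 5 alveolar type 2 genes was 15.15 to 15.19 in lung and at most 8.25 elsewhere. Their part in the lung level of Fxyd3 was not tested.

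Across the tissues, 5 of the 7 probe sets differed between liver and brain, 4 between liver and lung and 6 between brain and lung, at an adjusted p under 0.05 (limma) and at least 2-fold. The same limits took in 33.5%, 28.0% and 31.0% of all 31042 probe sets. Each of the 7 was higher in 1 tissue than in both others: 4 in brain, 2 in lung and 1 in liver, against 11.5%, 8.95% and 7.28% of all probe sets. The genes are a chosen family, so these shares describe them and test nothing. The median of the 7 was -2.998 for liver minus brain, -0.67 for liver minus lung and 2.34 for brain minus lung, beside 0.18, 0.12 and -0.03 over all probe sets. Fxyd1, Fxyd3, Fxyd5 and Fxyd7 are near neighbours on chromosome 1 in the GRCr8 gene table, with 1 other protein-coding gene, Lgi4, between Fxyd1 and Fxyd3. Although Fxyd1 and Fxyd3 lie so close, the former peaked in liver and the latter in lung. Atp1b1 is on chromosome 13, Atp1b2 on 10 and Atp1b3 on 8.

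Ratios of isoforms on 1 array do not change when that array is scaled by a factor, and although levels of different probe sets cannot be set against each other, a ratio can be compared between tissues. For Atp1b1 and Atp1b2, which have 2 probe sets, probe set 1 was used. The log2 ratio of Atp1b3 to Atp1b1 was 0.02, 0.26 and 0.11 in liver, -2.86, -2.93 and -2.92 in brain and 1.41, 1.20 and 1.23 in lung. Brain and lung thus differed 18.2-fold in this ratio, with liver between them and no overlap. By probe set 2 of Atp1b1 the difference between brain and lung was 10.9-fold. The ratio of Atp1b3 to Atp1b2 differed by 91.6-fold between brain and lung and 29.0-fold between liver and brain, and by 27.5-fold and 4.83-fold with probe set 2 of Atp1b2, in the same direction.

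The ratio of Atp1b2 to Atp1b1 had no settled order of brain and liver, because its direction turned with the probe set of Atp1b2. With probe set 1 of both genes it was -3.88, -3.92 and -4.14 in liver, -2.04, -2.22 and -2.21 in brain and -4.46, -4.19 and -4.81 in lung. Brain stood 3.54-fold above liver and 5.03-fold above lung. With probe set 2 of both genes, brain stood 1.33-fold below liver and 2.53-fold above lung, and with probe set 2 of Atp1b2 over probe set 1 of Atp1b1 these were 1.70-fold below and 1.51-fold above. The ratio of Fxyd3 to Fxyd1 was 45.0-fold higher in lung than in liver and 13.3-fold higher in lung than in brain. None of the 12 comparisons of ratios, with probe set 1 of each gene, had overlapping arrays, and each gave p = 0.10 in a two-sided exact permutation test, the smallest p that 3 against 3 arrays allow, also after adjustment over the 12.

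**Figure D2:**
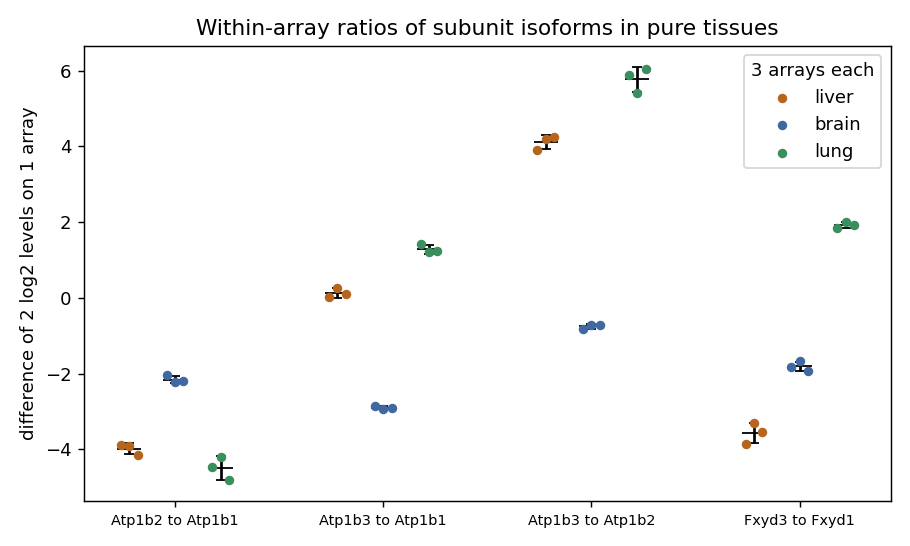
Log2 ratio of isoform pairs on each of the 9 arrays of pure tissue; points are arrays, lines are means of 3 and bars are SD. The ratio of Atp1b3 to Atp1b2 with probe set 1 of each gene spans from -0.75 in brain to 5.77 in lung, and that of Fxyd3 to Fxyd1 from -3.56 in liver to 1.93 in lung; heights of different ratios are not comparable.

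Of 14 other measured genes of the pump family, 4 were enriched in brain by the same rule, 2 in lung and 0 in liver. These counts stand beside 11.7%, 11.5% and 9.61% of all 14217 genes, and those for lung and liver are near these shares. The brain genes were Fxyd7, an FXYD gene known from neurons, and Nkain1, Nkain2 and Nkain3, whose proteins bind the beta subunit. Fxyd7 averaged 8.79 ± 0.03 (SD, n = 3) in brain, 4.75 ± 0.52 in liver and 4.58 ± 0.20 in lung, a difference of 16.5-fold and 18.6-fold (limma, adjusted p = 1.11e-24 and 4.01e-25). Nkain2 was 17.1-fold and 22.9-fold higher in brain than in liver and lung. These counts were the same after median centring, after quantile normalization and with the 5th percentile subtracted.

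The lung genes were Fxyd5, whose protein, dysadherin, also weakens contacts between cells, and Atp1b4, a beta-like gene of muscle whose protein is known from the nuclear envelope rather than from the pump. Fxyd5 averaged 8.73 ± 0.07 (SD, n = 3) in lung, 6.50 ± 0.11 in brain and 5.58 ± 0.34 in liver, so lung exceeded brain 4.69-fold and liver 8.90-fold. Atp1b4 averaged 5.61 ± 0.10 in lung. Its means of 3.08 ± 0.21 in liver and 2.85 ± 0.03 in brain were near those of the dap controls. Of 8 heart muscle genes 5 were enriched in lung as well, such as Myh6 at 9.32 (4.14 by its other probe set). Ryr2 was enriched in brain, and Actn2 and Nppa in no tissue. The part of heart muscle in the level of Atp1b4 was not tested.

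Some subunit genes were shared by a pair of tissues. Fxyd6, an FXYD gene of brain, averaged 8.24 ± 0.04 (SD, n = 3) in brain and 8.10 ± 0.02 in lung, against 5.43 ± 0.18 in liver. Nkain4 had 8.44 in brain, 7.97 in lung and 6.38 in liver. Fxyd2, the gamma subunit of kidney pumps, averaged 5.78 in lung and 5.08 in liver and was near the dap controls in brain at 2.98. With the curve through the hybridisation controls Fxyd2 too was enriched in lung. Fxyd4, Atp1a4, Atp12a, Atp4a and Atp4b, known from kidney, sperm, stomach and other epithelia, had no mean above 4.42 in any tissue.

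**Figure D3:**
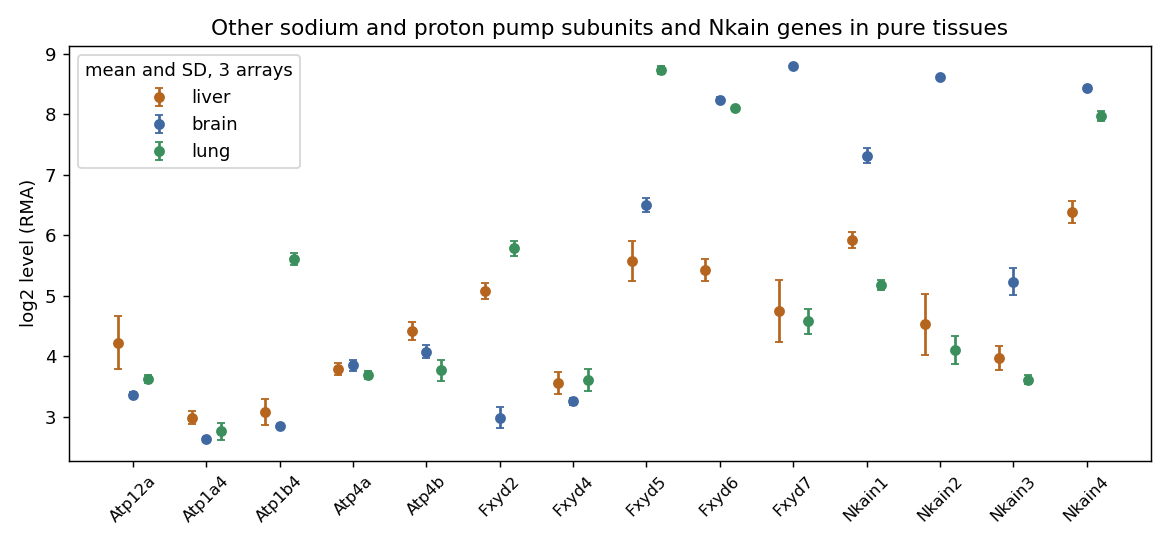
Mean log2 level of the 14 other measured pump family genes in pure liver, brain and lung, with SD over 3 arrays. Fxyd7, Nkain1, Nkain2 and Nkain3 are highest in brain and Fxyd5 and Atp1b4 in lung, while Fxyd6 is at 8.24 in brain and 8.10 in lung.

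The sodium gradient is spent by transporters and channels. Of 26 listed genes 24 were measured, and 3 were enriched in liver, 2 in brain and 5 in lung, of which the liver and brain counts are near the shares of all genes given above. In liver they were the bile acid carrier gene Slc10a1 at 12.05, Slc6a13 at 9.83 and the glutamine carrier gene Slc38a3 at 9.94. In brain they were the glial glutamate carrier gene Slc1a3, at 11.67 against 8.04 in lung and 4.01 in liver, and the bicarbonate carrier gene Slc4a4, at 9.42 against 8.23 in liver and 6.58 in lung. The genes enriched in lung were the phosphate carrier gene Slc34a2 of alveolar type 2 cells at 12.39 and the taurine carrier gene Slc6a6 at 9.87. Also enriched there were the sodium channel genes Scnn1a, Scnn1b and Scnn1g, at 7.92, 6.45 and 7.81. All 3 sodium channel genes, which let sodium into airway and alveolar cells ahead of the pump, were higher in lung than in liver. The steps were 14.04-fold, 2.58-fold and 5.92-fold by these probe sets. By their other probe sets, Scnn1a was 1.90-fold higher, under the 2-fold limit, and Scnn1g 3.81-fold higher. The counts moved with scaling. Slc6a6 and Slc4a4 lost their calls after median centring, where the counts were 4 in liver, 2 in brain and 4 in lung. Subtraction of the 5th percentile gave 3, 6 and 6, and Kcnj10 was then among the brain genes.

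The genes whose pattern was nearest to each member over the 14 group means were found after centring each gene on its own mean, by the root mean square difference in log2 units. For Atp1b1 they were Khdrbs3, Purg and Car11, at 0.081, 0.082 and 0.084. For Atp1b2 they were Nptxr at 0.027, Tubb3 at 0.083 and Napb at 0.086. Those of Atp1b3 were Myl12b, Mprip and Pdgfra, at 0.056, 0.061 and 0.062, and those of Fxyd1 were Galt, Pgrmc2 and Acp2, at 0.036, 0.042 and 0.042. Fxyd3 had the least close neighbours, Slc6a4 at 0.096, Ehd4 at 0.099 and Myh11 at 0.12. The median distance of all genes was 1.12 for Atp1b1, 1.76 for Atp1b2, 0.55 for Atp1b3, 0.50 for Fxyd1 and 1.245 for Fxyd3. Mixtures of the same 3 RNAs share their sources, so these distances rest on the levels in 3 tissues.

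In the mixtures each gene followed the share of its leading tissue. Among pairs of mixtures with unequal brain shares, the one with more brain had the higher mean in 53 of 53 pairs for Atp1b1 probe set 1, 52 for probe set 2, and 51 and 48 for Atp1b2 probe sets 1 and 2. The mixture with more lung was higher in 49 of 50 pairs for Atp1b3 and 50 of 50 for Fxyd3. That with more liver was higher in 51 of 52 pairs for Fxyd1. As an example, Fxyd3 averaged 6.38 ± 0.13 (SD, n = 3) at 1% lung in 65/34/1, 7.75 ± 0.07 at 15% in 55/30/15 and 9.52 ± 0.16 at 70% in 5/25/70.

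**Figure D4:**
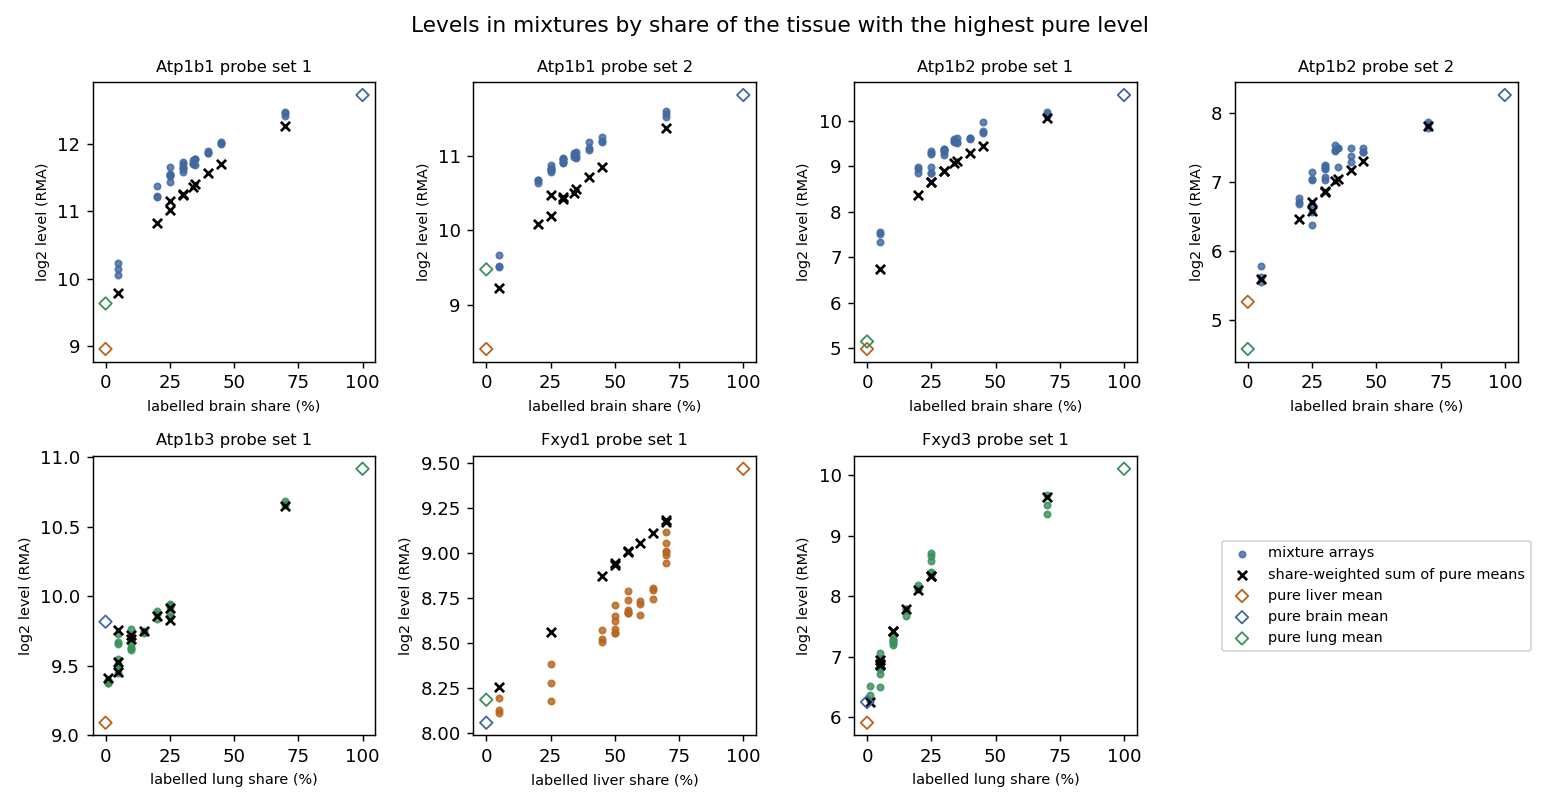
Log2 level on the 33 mixture arrays against the labelled share, in percent, of the tissue with the highest pure level; points are arrays, crosses are the share-weighted sums of the pure means and diamonds the pure means. Atp1b1 and Atp1b2 probe set 1 have means above their crosses in all 11 mixtures, Fxyd1 has means below them in all 11, and Atp1b3 and Fxyd3 scatter around theirs.

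Exchanging liver for brain at 5% lung moved all 7 probe sets (limma, adjusted p under 0.05 with no fold limit), as it did 53.0% of all probe sets. Atp1b1 probe set 1 read 11.54, 11.55 and 11.52 in 70/25/5 and 12.46, 12.41 and 12.45 in 25/70/5, with no overlap. The log2 differences of 70/25/5 minus 25/70/5 were -0.90 and -0.75 for Atp1b1, -0.84 and -0.76 for Atp1b2, -0.19 for Atp1b3, 0.70 for Fxyd1 and 0.25 for Fxyd3. The share-weighted sums of pure means gave -1.24 and -1.17, -1.41 and -1.11, -0.30, 0.61 and -0.09. Fxyd3 was thus higher in the mixture with more liver, where the pure tissues put liver below brain. Its adjusted p of 0.0375 was lost when single arrays were left out: it became 0.0521 without 25/70/5 replicate 2, 0.239 without 25/70/5 replicate 3 and 0.186 without 70/25/5 replicate 3, and with the curve through the hybridisation controls the sign turned.

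The mixture 70/25/5 also enters the next pairs, which therefore share its arrays. Exchanging liver for lung at 25% brain moved 5 of the 7 probe sets, against 61.3% of all. Fxyd3 read 6.85, 6.87 and 7.07 in 70/25/5 and 9.52, 9.37 and 9.68 in 5/25/70, which is 6.02-fold apart. Atp1b3 was 2.26-fold higher in the lung-rich mixture and Fxyd1 1.78-fold higher in the liver-rich one. Atp1b1, whose leading tissue was held constant, differed by -0.01 ± 0.05 and -0.03 ± 0.04 (SE) by its 2 probe sets (limma, adjusted p = 0.941 and 0.621). After quantile normalization these were -0.13 and -0.18 and passed (adjusted p = 0.0386 and 0.000495), which made 7 of 7. Atp1b2 did differ with brain held constant: 70/25/5 exceeded 5/25/70 by 0.41 (adjusted p = 0.000209) and 0.54 (8.27e-06), where the pure means gave -0.01 and 0.14. With the curve through the hybridisation controls these became -0.04 and 0.05 and passed no limit.

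Exchanging brain for lung at 70% liver moved 6 of the 7, against 46.8% of all probe sets. Going from 70/25/5 to 70/5/25, Atp1b2 fell from 9.34, 9.29 and 9.28 to 7.50, 7.55 and 7.33 by probe set 1, a 3.59-fold difference. Atp1b1 fell 2.63-fold and 2.36-fold, Fxyd3 rose 3.30-fold and Atp1b3 rose 1.32-fold. Fxyd1, whose leading tissue was held constant, differed by 0.08 ± 0.05 (SE; limma, adjusted p = 0.170), and by 0.14 after median centring, where it passed (adjusted p = 0.0143).

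The smallest exchange compared 60/35/5 with 65/34/1, where lung goes from 5% to 1%. Of the 7 probe sets 1 differed, Fxyd3, against 2.50% of all. It read 6.95, 6.88 and 6.79 at 5% lung and 6.36, 6.51 and 6.26 at 1% lung, and the groups did not overlap. The difference was 0.50 ± 0.10 (SE; limma, adjusted p = 0.00186), where the pure means gave 0.64. Atp1b3, the other lung gene, differed by 0.12 ± 0.04 (adjusted p = 0.147), beside the 0.12 that its pure means gave. With the curve through the hybridisation controls the Fxyd3 difference was 0.10 (limma, adjusted p = 0.699). The curve moved the median difference of all probe sets for this pair from -0.017 to -0.417.

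How far the mixtures lay from their predicted level, the share-weighted sum of the pure means, differed by gene. Averaged over the 11 mixtures, Atp1b1 lay above that sum by 0.37 ± 0.03 (log2, SE) and 0.44 ± 0.03 by its 2 probe sets, in 11 of 11 mixtures each. Atp1b2 lay above by 0.44 ± 0.06 in 11 of 11 mixtures and by 0.22 ± 0.06 in 10 of 11. Fxyd1 lay below, at -0.27 ± 0.03, in 11 of 11 mixtures. Atp1b3 at -0.01 ± 0.02 and Fxyd3 at -0.01 ± 0.05 did not pass limma's test (adjusted p = 0.723 and 0.804). With the curve through the hybridisation controls Fxyd1 lay at -0.092 and Atp1b2 at 0.38 and 0.13, and none of these passed (adjusted p = 0.695, 0.171 and 0.636). After median centring Fxyd1 lay at -0.47 and Atp1b3 at -0.12 (adjusted p = 4.83e-07). None of the 7 departed by 1.5-fold, the limit for a call, which 0.325% of all probe sets passed upward and 4.84% downward. The median over all probe sets was -0.22 and that of the 7 was 0.22.

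For 3 of the 4 probe sets of the brain genes the departure was smallest in 25/70/5, the mixture with most brain. Atp1b1 departed by 0.19 in 25/70/5 by either probe set, and by 0.52 and 0.61 in 70/25/5. Atp1b2 probe set 1 departed by 0.09 in 25/70/5 and by 0.72 in 70/5/25, which holds 5% brain. Its probe set 2 was lowest in 5/25/70, at -0.03, and highest in 65/34/1, at 0.47. For Fxyd3 the values ran from -0.27 in 25/70/5 to 0.32 in 70/5/25, so its mean near 0 covers departures in both directions. If instead log2 values were taken to mix in proportion to the shares, 5 of the 7 departed by over 1.5-fold. So did 3275 of all 31042 probe sets.

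**Figure D5:**
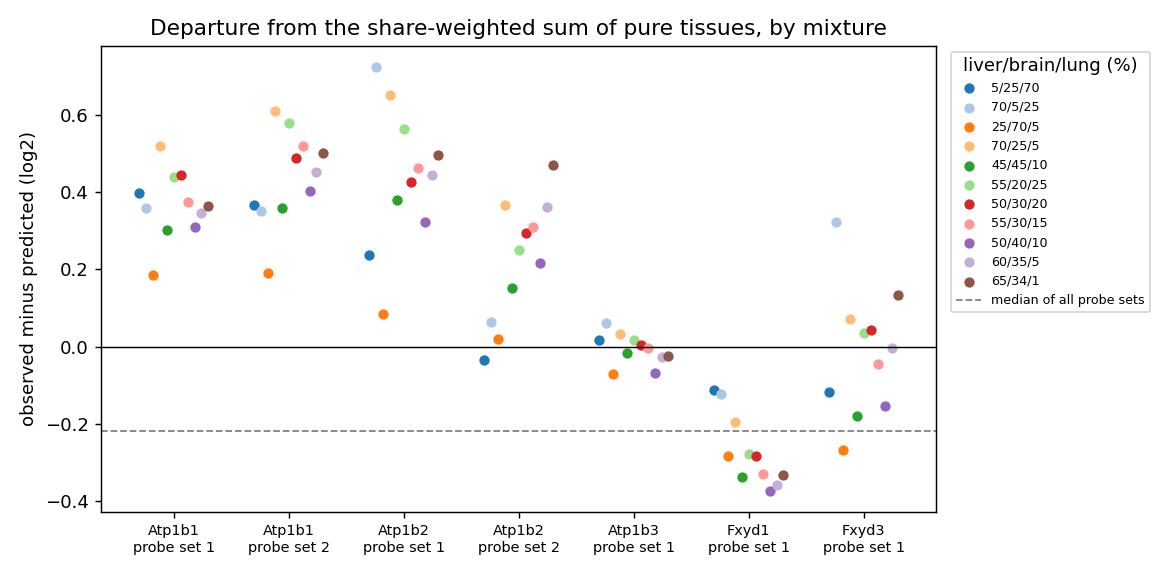
Observed minus predicted log2 mean level in each of the 11 mixtures (colours), where the prediction is the share-weighted sum of the pure means; the dashed line is the median over all probe sets, -0.22. The brain genes Atp1b1 and Atp1b2 lie mostly above 0, the liver gene Fxyd1 lies below 0, and the lung genes Atp1b3 and Fxyd3 lie around 0.

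The tissue levels could also be read from the mixtures without the pure arrays, by regression of the 11 mixture means on the shares in linear array units. The errors and p-values of this regression measure the scatter of these means about the fit, not that between replicate arrays. All 7 probe sets differed between liver and brain, 5 between liver and lung and 7 between brain and lung (limma with a variance trend, adjusted p under 0.05), against 61.4%, 60.5% and 60.8% of all probe sets. For Atp1b3 the regression gave 577 ± 19.9 (SE) in liver, 814 ± 29.7 in brain and 1991 ± 30.2 in lung, beside pure means of 545, 902 and 1932. For Fxyd1 it gave 600.0 ± 17.8, 167 ± 26.6 and 302 ± 27.0, beside 708, 266 and 291. The order of tissues was the same as in the pure arrays for both genes, though the Fxyd1 readings in liver and brain lay below the pure means.

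For Atp1b1, Atp1b2 and Fxyd3 the readings differed too, also in tissues with low levels. Atp1b2 probe set 1 came out at 1634 ± 57.3 (SE) in brain, beside a pure mean of 1514, but at 263 ± 38.4 in liver, where the pure arrays gave 31.6. Its difference of liver minus lung was 218 ± 75.1 (limma, adjusted p = 0.0214), with the sign opposite to the pure arrays. By probe set 2 of Atp1b2 this difference was 76.9 ± 19.1 (limma, adjusted p = 0.00301), with the same sign as the pure arrays. Fxyd3 came out at 1063 ± 24.5 in lung, beside 1106, and at 134 ± 16.1 in liver and -20.1 ± 24.1 in brain, where the pure arrays gave 59.9 and 75.9. Its liver minus brain difference also had the opposite sign, at 154 ± 37.3 (adjusted p = 0.00225). For Atp1b1 the liver coefficients were 1081 and 868 by its 2 probe sets, beside pure means of 498 and 339, and liver and lung no longer differed (adjusted p = 0.388 and 0.593). The leading tissue of every probe set was the same by both readings.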

How the data were processed

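Total RNA of liver, brain and lung was labelled and hybridised to Affymetrix arrays, pure or as mixed cRNA. The authors normalized the data with RMA, per the labels' protocols, and deposited 1 log2 level per probe set and array. No source used here gives the version of RMA. RMA as usually run gives arrays similar distributions, which can shift tissues whose RNA is spread over genes differently. It also compresses steps at low levels.

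Of 31099 probe sets, 57 controls were left out of the tests. In the platform annotation 20826 probe sets had 1 symbol, 436 had several and 9780 had no entry. No replicate pair was identical (at most 28 equal values). A single model of the 14 group means was fitted to all 42 arrays with limma 3.58.1 in R 4.3.3 (28 residual degrees of freedom), with Benjamini-Hochberg adjustment over the 31042 probe sets. A call between pure tissues needed an adjusted p under 0.05 and a 2-fold step, and a gene called higher in 1 tissue than in each of the others is enriched there. Pairs of mixtures needed only the adjusted p, and departures 1.5-fold, with errors by the delta method. For gene lists and nearest genes the probe set with the highest mean stood for its gene. Described were all probe sets of the members, the 14 other measured pump genes and the 3 nearest genes of each member. Of the other lists only some measured genes were named, and the rest enter counts or summed levels alone.

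Alternatives were a variance trend, median centring, quantile normalization, a curve through the hybridisation controls, removal of dim probe sets, subtraction of each array's 5th percentile, the pure arrays alone, mixing on the log2 scale and leaving out each array. The members and lists were chosen with earlier results of these data known. The steps were tested on simulated arrays. Plots were made in Python 3.11.15 with matplotlib 3.10.9.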

Additional observations from a re-analysis of the deposited data

How the results depend on the processing

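The 7 probe sets kept their tissue of highest level under all alternatives run. With the curve through the hybridisation controls, Fxyd1 stayed highest in liver but was under the 2-fold limit. That curve moved the median of all probe sets from 0.18 to -0.65 for liver minus brain and from 0.12 to -0.78 for liver minus lung. Median centring moved these medians to 0.42 and 0.37. For single probe sets 904 alternative values kept direction and call, 13 kept the direction and lost the call, 13 kept it and gained one, and 22 turned sign, with or without a change of call; the causes were not tested. The curve lowered the calls to 4 for 70/25/5 against 25/70/5, 2 for 70/25/5 against 5/25/70 and 0 for 60/35/5 against 65/34/1. Over all 31042 probe sets it lowered them from 16455, 19028 and 775 to 14113, 13253 and 52. It moved the medians of all probe sets for these pairs from -0.011, 0.045 and -0.017 to -0.469, -0.428 and -0.417. The count for 60/35/5 against 65/34/1 was 2 with a variance trend and with the 5th percentile subtracted. Over all probe sets it was 876 and 887.

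Signs turned under the curve for Fxyd3 in 70/25/5 minus 25/70/5 (-0.22), Atp1b2 probe set 1 in 70/25/5 minus 5/25/70 (-0.036), Atp1b2 probe set 2 in liver minus lung (-0.23), and Atp1b1 probe set 1 and Atp1b3 in 60/35/5 minus 65/34/1 (-0.35 and -0.27). Median centring turned Atp1b1 in 70/25/5 minus 5/25/70 (0.082 and 0.060) and Atp1b2 probe set 1 in liver minus lung (0.088), and quantile normalization turned Atp1b1 probe set 2 in 60/35/5 minus 65/34/1 (0.020). Mixing on the log2 scale gave departures of 0.13 for Atp1b3 and 0.87 for Fxyd3 and 5 calls, beside 3275 over all 31042 probe sets. With the 5th percentile subtracted, the ratio of Atp1b2 to Atp1b1 differed by -2.28 for liver minus brain and 2.67 for brain minus lung, that of Atp1b3 to Atp1b2 by 5.33 and -6.88, and that of Fxyd3 to Fxyd1 by -3.88 for brain minus lung. Other probe sets for the ratios were tried after seeing the data. The ratio of Atp1b2 to Atp1b1 then differed, for liver minus brain, liver minus lung and brain minus lung, by -2.17, 0.90 and 3.08 (Atp1b1 probe set 2), 0.76, 1.36 and 0.60 (Atp1b2 probe set 2) and 0.41, 1.75 and 1.34 (probe set 2 of both). That of Atp1b3 to Atp1b1 differed by 2.68, -0.76 and -3.44, and that of Atp1b3 to Atp1b2 by 2.27, -2.51 and -4.78, with probe set 2.

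Leaving out single arrays turned signs of values near 0. Departures then ran from -0.018 to 0.0047 for Atp1b3 and from -0.049 to 0.013 for Fxyd3. The difference of 70/25/5 minus 5/25/70 ran from -0.061 to 0.053 for Atp1b1 probe set 1. That of 60/35/5 minus 65/34/1 ran from -0.027 to 0.015 for Atp1b1 probe set 2, from -0.042 to 0.013 for Atp1b2 probe set 1 and from -0.13 to 0.0084 for Atp1b2 probe set 2. No paired analysis was possible because the labels give the arrays no replicate numbers. The number of arrays limits precision, and low levels, such as those of Atp1b2 in liver and lung, lie nearer the signal of empty probe sets.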
